A study of Homo sapiens with 6 samples.

Results

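The genes described here are 53 ligands and receptors of 4 guidance systems, namely the Eph receptors and ephrins, the semaphorins with their plexin and neuropilin receptors, the SLIT and ROBO proteins, and netrins with the receptors DCC, neogenin and UNC5. They were taken by symbol from the 60660 genes of the files, and 45 of the 53 had enough counts to be tested. Expression was measured by poly-A RNA-sequencing in 12Z cells, which are an epithelial line established from endometriosis. There were 3 libraries of control cells, transfected with a non-targeting siRNA, and 3 libraries of knockdown cells, transfected with 10 nM of siRNA LINC01133a against the long non-coding RNA LINC01133. All 6 were lysed 72 h after transfection. The comparison asks which guidance genes were higher or lower once LINC01133 had been reduced. It rests on 1 cell line and 1 siRNA, and the libraries of a group are described in the study as biological replicates. The p-values weigh the difference between the groups against the spread between these libraries. They do not cover variation between siRNAs or cell lines.

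Guidance molecules were first known from growing axons, where they attract or repel the growth cone, and many of them also steer migrating epithelial, endothelial and tumour cells. Eph receptors are tyrosine kinases that meet ephrins on a neighbouring cell, and the contact signals into both cells and sorts or repels them. Ephrin-A ligands hang on the membrane by a lipid anchor and ephrin-B ligands span it. Semaphorins bind plexins, which act on small GTPases and the actin cytoskeleton, and most secreted class 3 semaphorins need a neuropilin as co-receptor. Neuropilins also bind members of the VEGF family. SLIT proteins repel cells through ROBO receptors, and netrins attract them through DCC or neogenin and repel them through UNC5 receptors.

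The siRNA is shown first because a guide strand can also bind other transcripts through its seed, bases 2 to 8, which are in capitals in the strand that follows, written 5′ to 3′.
LINC01133a guide strand: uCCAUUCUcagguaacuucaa
Its 19-base target lies in LINC01133 at chr1:159976669-159976687 of GRCh38 on the plus strand. Among the members, the match of fewest mismatches to the whole target was in NRP1 with 4, and the other members had 5 or more. The 7 bases that pair with the seed (AGAATGG, searched on the transcript strand) were found in the 3′ UTR of the canonical GENCODE v44 transcript of 13 of the 45 members tested (28.9%), against 17.1% of 12538 genes tested with a 3′ UTR. The median 3′ UTR was 1796 bases long in the members and 1365 bases in all genes tested. The 13 members with the match had a median log2 fold change of knockdown against control (log2FC) of -0.13 and the other 32 one of -0.18, the lower median being that of the members without the match. In the genes tested as a whole the medians were -0.09 with the match and 0.00 without it. The match was present in 2 of the 7 members that were lower in knockdown cells by more than 1.5-fold (adjusted p under 0.05), or 28.6%. It was present in 10 of the 35 members that did not differ by these cutoffs, also 28.6%. Sites of the 2 lower genes are shown with 9 bases on either side, the match in capitals.
EPHB2 site 1: gaagcccccAGAATGGgtcattgtt
EPHB2 site 2: gcagctgccAGAATGGtccaacaca
EPHB2 site 3: ttaaggtggAGAATGGtcttgcagc
NEO1 site: agcctgcagAGAATGGaagcatctt
The NEO1 match runs on to an eighth base. The matches lie on the plus strand of GRCh38 at chr1:22916907-22916913, chr1:22917932-22917938 and chr1:22918672-22918678 for EPHB2 and at chr15:73303580-73303586 for NEO1. SEMA3E, which was higher by more than 1.5-fold, also held a match. No match to the guide seed was found in the 3′ UTRs of EFNB1, NRP1, NRP2, EFNA3, SEMA3F, EPHA5 or PLXNC1. The seed of the sense strand was matched in 7 members tested (15.6%, against 13.6% of all genes), NRP1 and SEMA3E among them. A seed match is a description of the sequence, and its part in the results was not tested.

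LINC01133 itself had a normalized count of 813, 818 and 837 in control cells and 129.6, 131 and 138 in knockdown cells, that is 16.1% of control. The log2FC was -2.63 (SE 0.0702, adjusted p = 3.5e-11). SE is the standard error of the log2FC. Normalized counts are counts scaled by the TMM method to the mean library size. Every adjusted p comes from the quasi-likelihood test of edgeR, adjusted by Benjamini-Hochberg over 15155 genes, unless another tool is named. The libraries held 27742562 to 37551194 counts on genes. Control library 2 stood apart, with a chi-square per degree of freedom over gene counts of 11.9 and 13.1 against the other controls, whereas controls 1 and 3 differed by 3.75 and pairs of knockdown libraries by 2.2 to 3.50. It was the highest of the controls for 24 of the 45 members tested (53.3%), against 35.1% of all genes tested. Cell type markers moved with the knockdown as well. The summed normalized count of 6 epithelial markers was 199879 to 210735 in control and 127683 to 133678 in knockdown libraries, with 5 of the 6 lower. Nearly all of this sum came from keratins, with KRT8 at 104513 ± 2607 in control and 67704 ± 2224 in knockdown cells (SD, n = 3). For some of the keratins, the paper reports that the reduction could not be reproduced in its follow-up measurements. Among the 6 markers CDH1, the adhesion protein E-cadherin, went from 412 ± 36.6 to 102 ± 21.0, and EPCAM was near absent at 13.6 ± 4.33 in control cells. That of 4 mesothelial markers was 12454 to 12875 in control and 7105 to 7624 in knockdown libraries, with 3 of the 4 lower. That of 6 fibroblast and stromal markers was 96849 to 112208 in control and 92322 to 96641 in knockdown libraries, with 3 lower and MME higher. Endothelial markers summed to 79.8 to 91.8 and 178 to 220.3, mostly from CDH5, while leukocyte markers summed to 34.9 at most and neural markers to 263 at most. The part of these shifts in the results was not tested, and in bulk RNA fewer cells of a type cannot be told apart from less RNA per cell.

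Of the 45 guidance genes tested, 9 were higher and 21 lower in knockdown cells at an adjusted p under 0.05. These 30 genes make up 66.7% of the members, against 48.3% of all genes tested, with 23.3% of all genes higher and 25% lower. With a fold change over 1.5 as well, the cutoffs for differential expression (DE), 10 members were DE (22.2%, against 11.7% of all genes tested). PLXNC1, EPHA5 and SEMA3E were higher, and EPHB2, NRP1, EFNB1, EFNA3, NEO1, NRP2 and SEMA3F were lower, against a background of 5.3% of all genes DE higher and 6.43% DE lower. The median log2FC was -0.17 over the members tested and 0.00 over all genes tested. The counts of the groups did not overlap for 31 members (68.9%), 21 of them lower and 10 higher, and for 57.3% of all genes tested, 29% lower and 28.3% higher. Among the ligands 3 were higher and 11 lower of 24 tested (58.3%). Among the receptors 6 were higher and 10 lower of 21 tested (76.2%). Both shares stand against 48.3% of all genes tested. The members tested had a median normalized count of 944 and all genes tested one of 690.3. Members were chosen with earlier results of these data known, so these shares describe the list and do not test it.

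**Figure D1:**
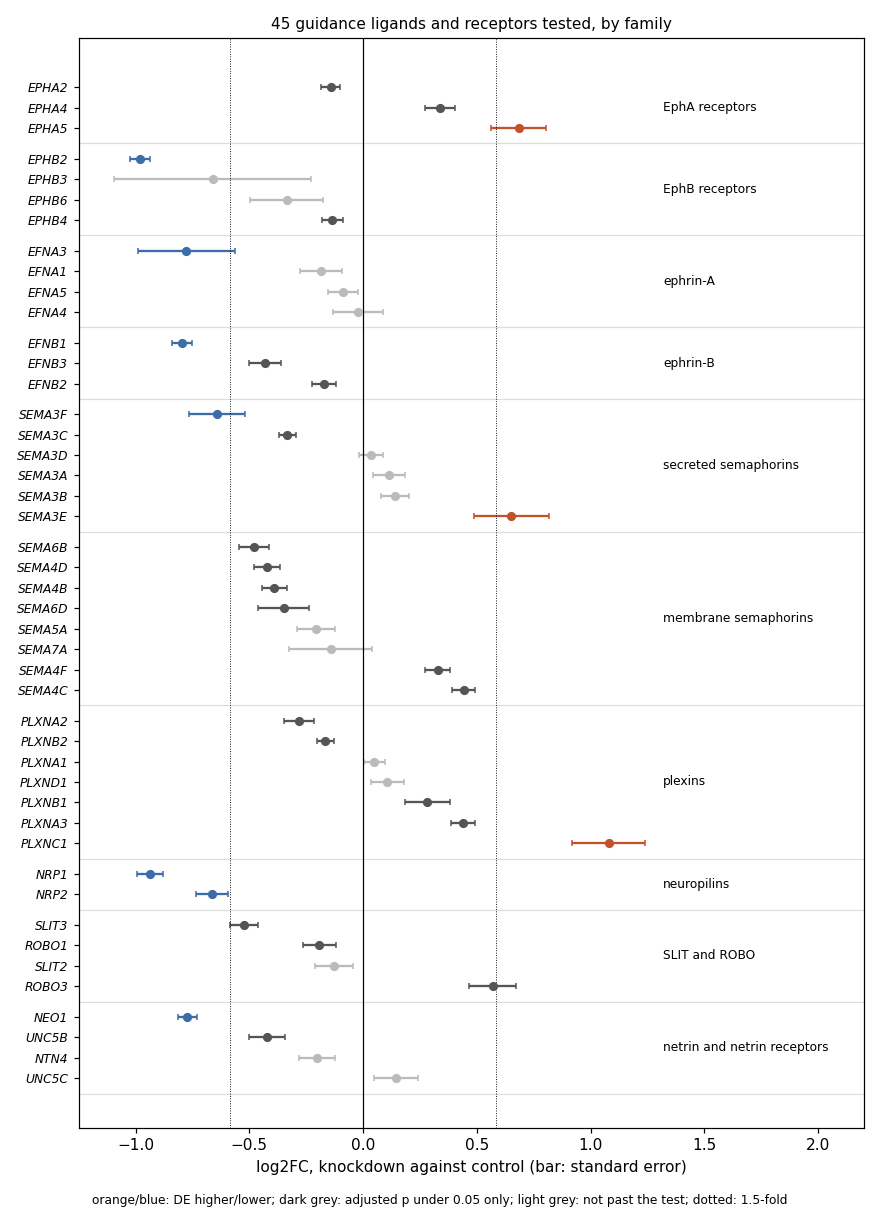
Log2FC of knockdown against control for the 45 guidance genes tested, by family, with standard errors as bars and dotted lines at a fold change of 1.5. Both neuropilins and the 3 ephrin-B genes lie left of 0, whereas semaphorins and plexins spread to both sides, from -0.64 for SEMA3F to 1.08 for PLXNC1.

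The guidance genes of 12Z cells spanned a wide range of levels. Levels are given as CPM (counts as a share of the TMM-scaled library) per kb of annotated exon, the mean of 3 libraries. This scale was used to compare different genes. The exon length was that of all annotated exons of a gene merged, so a gene with exons unused in 12Z cells appears lower. Which exons the cells use was not examined, so ranks between genes are approximate. PLXNB2, a receptor of class 4 semaphorins, had the highest level with 53.6 in control cells, followed by EPHA2 with 27.7, SEMA3C with 26.1, EFNB1 with 22.2, SEMA5A with 21.4 and SLIT3 with 18.8. The levels of EPHA2 and SEMA3C did not differ beyond the spread of the libraries, and neither did those of EFNB1, SEMA5A and SLIT3 from neighbour to neighbour. In knockdown cells EFNB1 stood at 12.8, below SEMA5A at 18.5 and close to SLIT3 at 13.1 and EPHA4 at 12.6. The 3 genes that were DE higher came from the low end, with control levels of 0.181 for PLXNC1, 0.246 for SEMA3E and 0.359 for EPHA5. Of the 7 that were DE lower, only EFNA3 had a control level under 1. Below the filter were EPHA1, EPHA3, EPHA7, EPHB1, SEMA6A, ROBO2, NTN1 and DCC, with 0 to 11 raw counts per library, and EPHA3 and DCC had none in any library, where a count of 0 allows up to 3 counts per library by counting error. Counts on the opposite strand were higher than these for EPHA1, at 744 to 1202 per library, and for SEMA6A, at 12 to 21, and made up 99.4% and 75.3% of the stranded counts in control libraries.

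**Figure D2:**
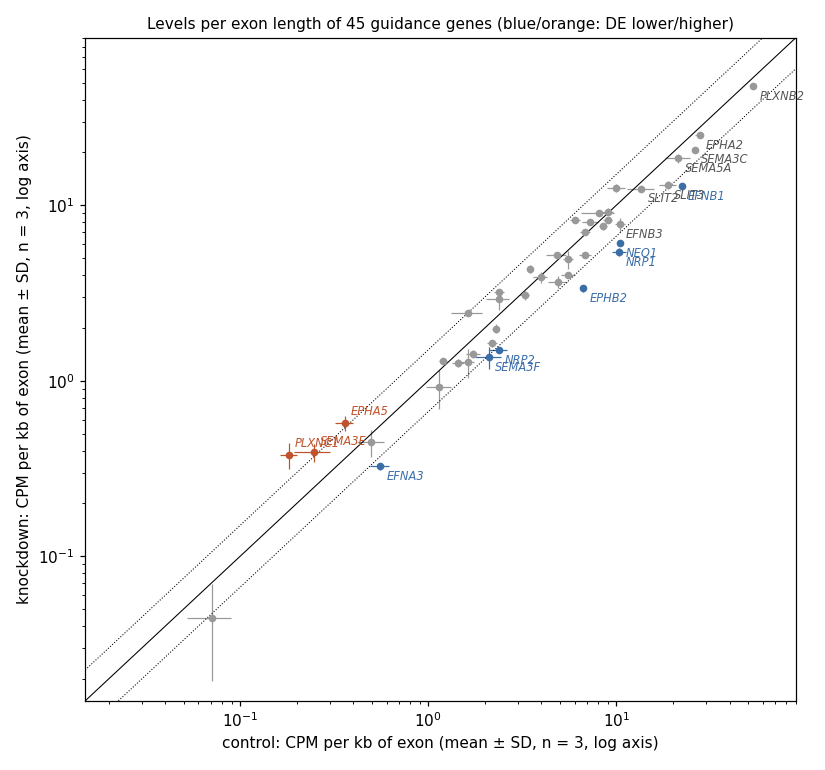
Level of each guidance gene tested in control (x axis) and knockdown cells (y axis), in CPM per kb of exon on log axes, as mean ± SD over 3 libraries, with the diagonal and dotted lines at a fold change of 1.5. The DE genes that were higher lie between 0.18 and 0.36 in control cells, and EFNB1, NEO1 and NRP1 lie above 10.

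Promoters are shown for EPHB2 and EFNB1, the receptor and the ligand that fell most among those with a sequence at hand, and for PLXNC1, which rose most. RefSeq windows of GRCh38.p14 from 250 bases before to 50 after the start were matched for 46 of the 53 members, 1 window per gene, the nearest to the start of the GENCODE canonical transcript, and 42 of them lay within 100 bases of it. No window was found for NRP1. They are printed 5′ to 3′ on the gene's strand, all on the plus strand, at chr1:22710589-22710888, chrX:68828771-68829070 and chr12:94148327-94148626, with matches to the 5 motifs named next in capitals.
EPHB2 promoter: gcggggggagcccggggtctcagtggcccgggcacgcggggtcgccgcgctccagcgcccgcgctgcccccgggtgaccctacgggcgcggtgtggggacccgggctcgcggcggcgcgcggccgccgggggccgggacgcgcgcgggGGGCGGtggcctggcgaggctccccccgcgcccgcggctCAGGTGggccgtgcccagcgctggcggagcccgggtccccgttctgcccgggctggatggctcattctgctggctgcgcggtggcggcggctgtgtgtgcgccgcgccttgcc
EFNB1 promoter: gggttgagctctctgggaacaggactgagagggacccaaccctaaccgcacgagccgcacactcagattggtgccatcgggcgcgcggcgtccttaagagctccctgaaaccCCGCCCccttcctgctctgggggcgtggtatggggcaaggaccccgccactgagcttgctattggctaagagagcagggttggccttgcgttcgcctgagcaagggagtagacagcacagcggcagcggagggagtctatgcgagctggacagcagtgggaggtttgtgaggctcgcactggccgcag
PLXNC1 promoter: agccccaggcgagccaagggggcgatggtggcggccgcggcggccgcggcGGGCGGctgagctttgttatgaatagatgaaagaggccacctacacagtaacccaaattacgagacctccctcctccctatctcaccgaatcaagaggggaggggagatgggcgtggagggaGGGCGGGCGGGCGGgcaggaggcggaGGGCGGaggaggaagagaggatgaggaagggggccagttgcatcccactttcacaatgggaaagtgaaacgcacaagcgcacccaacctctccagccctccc
The motifs searched on both strands were the GC box (GGGCGG), AP-1 (TGANTCA), TCF/LEF (ATCAAAG), TEAD (GGAATG) and an E-box (CACCTG), which do not hold one another. The GC box was present in 39 of the 46 member windows (84.8%) and in 56.2% of 19094 windows of all genes. The median GC content was 69.2% in the members and 62.3% in all genes. EPHB2 and EFNB1 held 1 GC box each, PLXNC1 held 5, and EPHB2 also held an E-box, as did 6 of the 46 members (13.04%, against 19.95% of all genes). AP-1 and TCF/LEF matches were found in none of the members' windows, against 6.50% and 2.15% of all genes, and TEAD matches in 3 (6.52%, against 12.2%). A match is a description of the letters in this window.

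Among the EphB receptors 2 of 4 tested were past the test (50%), and among their transmembrane ligands 3 of 3 (100%). The share over all genes tested was 48.3%. All 5 genes past the test were lower, as were 25% of all genes tested. EPHB2, a receptor kinase of ephrin-B ligands (ENSG00000133216.17, chr1:22710839-22921500 on the plus strand), had normalized counts of 2710.2, 2737 and 2646 in control cells and 1343, 1438 and 1316 in knockdown cells. All 3 knockdown libraries were far under the lowest control. The mean was 50.6% of the control mean, with a log2FC of -0.98 (SE 0.0434, adjusted p = 2.3e-09), the lowest of all members. EFNB1, a ligand that also signals into the cell that carries it (ENSG00000090776.6, chrX:68829021-68842160 on the plus strand), had 2419.7, 2389.5 and 2311 in control cells and 1363, 1304 and 1436 in knockdown cells. The groups were again well apart, and the log2FC was -0.80 (SE 0.0446, adjusted p = 1.8e-08). EFNB3 fell by less, from 1087 ± 69.2 to 809 ± 76.0 (SD, n = 3) with a log2FC of -0.43 (adjusted p = 0.00017), and EFNB2, the main ligand of EPHB4, from 1383 ± 69.1 to 1226 ± 61.3 with -0.17 (adjusted p = 0.0142). EPHB4 went from 1872 ± 103 to 1707 ± 37.4, a log2FC of -0.13 (adjusted p = 0.0291). The smaller shifts of EFNB2 and EPHB4 were fragile. EFNB2 had adjusted p = 0.077 without knockdown library 1 and 0.0643 without knockdown library 3, and EPHB4 0.105, 0.133 and 0.0824 without control library 1 and knockdown libraries 1 and 2 in turn, all from edgeR's test. Scaling by library size alone gave 0.085 for EFNB2 and 0.225 for EPHB4. EPHB6, whose kinase domain is inactive, had -0.34 (adjusted p = 0.0972), which became -0.45 (adjusted p = 0.0125) without control library 2 and -0.53 (adjusted p = 0.0111) without knockdown library 3. It was -0.25 (adjusted p = 0.283) without control library 3 and -0.20 (adjusted p = 0.356) without knockdown library 2. EPHB3 had 4 to 12 raw counts per library and a log2FC of -0.66 (SE 0.432, adjusted p = 0.226), and EPHB1 was not tested.

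The 3 EphA receptors tested moved in both directions, 2 higher and 1 lower (100%, against 48.3% of all genes tested). EPHA5 (ENSG00000145242.13, chr4:65319563-65670495 on the minus strand), best known from the nervous system, had 113, 127 and 103 in control cells and 201, 164 and 183 in knockdown cells. Every knockdown library was above every control, and the log2FC was 0.68 (SE 0.122, adjusted p = 0.00044). With the counts taken without regard to strand it was 0.58, just under the fold change cutoff, though its adjusted p was 0.0013. EPHA4, which binds ephrins of both classes, rose from 2439.8 ± 269 to 3079 ± 159 (SD, n = 3) with a log2FC of 0.34 (adjusted p = 0.00086). EPHA2, the EphA receptor with the highest level in these cells, fell from 3711 ± 183 to 3362 ± 19.4 with -0.14 (adjusted p = 0.0119), a shift of -0.08 (adjusted p = 0.119) when scaled by library size alone. The summed level of the EphA receptors per kb of exon went from 38.1 ± 2.16 to 38.3 ± 0.808 CPM per kb, that is 100.5% of control. Of the ephrin-A ligands, EFNA3 (ENSG00000143590.14, chr1:155078837-155087538 on the plus strand) had only 35.96, 30.4 and 38.3 in control cells and 19.5, 21.4 and 20.4 in knockdown cells. The knockdown libraries lay under all controls, with -0.78 (SE 0.213, adjusted p = 0.0086) in edgeR's test, but DESeq2 gave an adjusted p of 0.0727. In GENCODE v44, 43.9% of its exon bases are shared on the same strand with an EFNA4-EFNA3 readthrough gene, so its count is uncertain. EFNA1, EFNA4 and EFNA5 did not pass the test, at -0.18, -0.02 and -0.09, although EFNA1 had -0.27 (adjusted p = 0.0254) without knockdown library 3 and -0.10 (adjusted p = 0.43) without knockdown library 1.

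**Figure D3:**
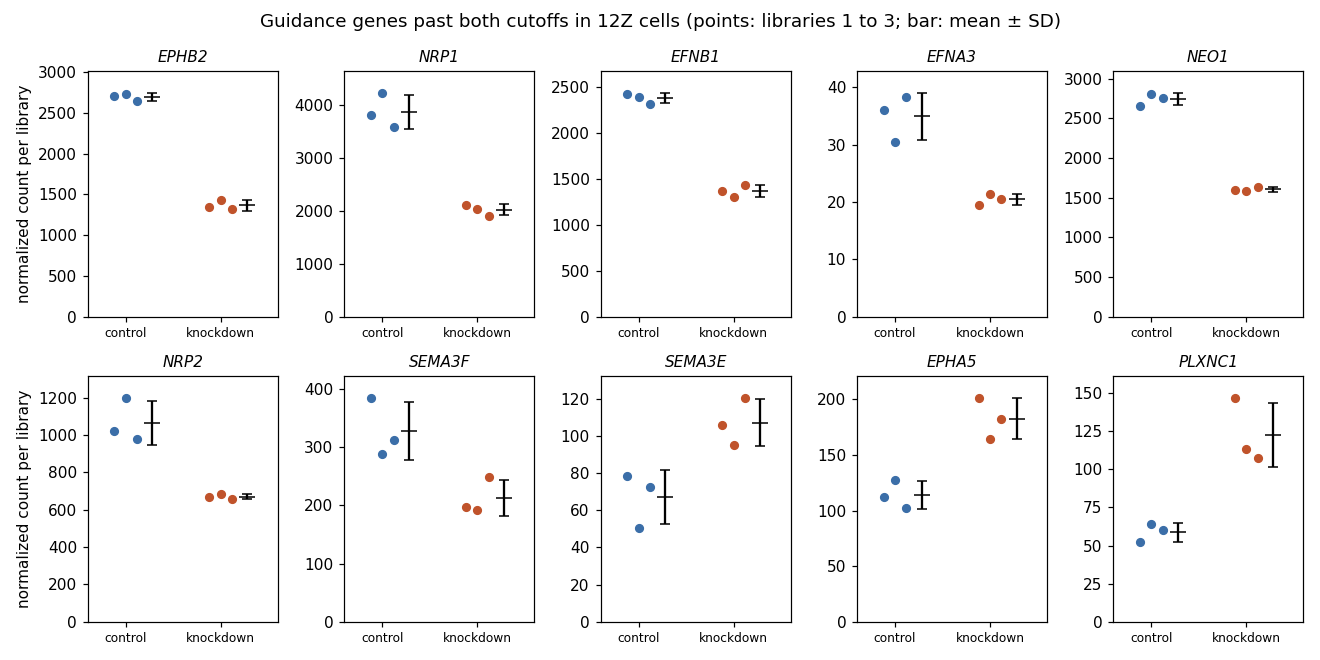
Normalized count in each library (points, libraries 1 to 3 from left to right) with mean ± SD (bars) for the 10 guidance genes past both cutoffs, on axes that start at 0. In every panel the control and knockdown libraries do not overlap, and the gaps relative to the spread are narrowest for SEMA3F and SEMA3E.

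Both neuropilins were DE lower, as were 6.43% of all genes tested. NRP1, co-receptor of SEMA3A and of VEGF-A (ENSG00000099250.18, chr10:33177492-33336262 on the minus strand), had 3813, 4224 and 3587 in control cells and 2118, 2041 and 1909 in knockdown cells. All knockdown libraries lay far under the controls, and the log2FC was -0.94 (SE 0.0581, adjusted p = 4.2e-08). NRP2, the preferred neuropilin of SEMA3F (ENSG00000118257.17, chr2:205681990-205798133 on the plus strand), had 1020.1, 1197 and 977 in control cells and 670.3, 683 and 660.1 in knockdown cells, a log2FC of -0.66 (SE 0.0703, adjusted p = 5.4e-06). Control library 2 was the highest for both, and without it NRP2 had -0.58 (adjusted p = 3.6e-08), short of the fold change cutoff. The summed neuropilin level per kb of exon went from 12.8 ± 1.12 to 6.92 ± 0.299 CPM per kb (SD, n = 3), 54.2% of control, the lowest share of the 10 families.

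The secreted class 3 semaphorins, ligands of the neuropilins and A-type plexins, had no common direction. SEMA3F (ENSG00000001617.12, chr3:50155045-50189075 on the plus strand) had 384, 288 and 312 in control cells and 197, 192 and 248 in knockdown cells. The highest knockdown library was close to the lowest control, with a log2FC of -0.64 (SE 0.123, adjusted p = 0.0008). It fell short of the fold change cutoff without control library 1 (-0.51), without knockdown library 1 (-0.58) and without knockdown library 2 (-0.57). SEMA3C, the member of the class with the highest level, fell from 5148 ± 132 to 4089 ± 132 (SD, n = 3), a log2FC of -0.33 (adjusted p = 1.3e-05). SEMA3E, which binds PLXND1 without a neuropilin (ENSG00000170381.14, chr7:83363238-83649139 on the minus strand), went the other way, with 78.5, 50.7 and 72.5 in control cells and 106, 95.1 and 120.2 in knockdown cells. The knockdown libraries were above all controls, among which library 2 was lowest, and the log2FC was 0.65 (SE 0.166, adjusted p = 0.0054). It was 0.49 without control library 2 and 0.57 without knockdown library 3, both under the fold change cutoff. SEMA3A, SEMA3B and SEMA3D did not pass the test, at 0.11, 0.14 and 0.03. Without control library 2 SEMA3A had 0.21 (adjusted p = 0.0016), and SEMA3B had 0.18 (adjusted p = 0.0481) and 0.18 (adjusted p = 0.0469) without control libraries 1 and 3 in turn. Without control library 3 SEMA3A had 0.05 (adjusted p = 0.57), and without control library 2 SEMA3B had 0.06 (adjusted p = 0.31).

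None of the 8 membrane-bound semaphorins tested reached the fold change cutoff. At an adjusted p under 0.05, 4 were lower and 2 higher (75%, against 48.3% of all genes tested). The largest of these shifts was that of SEMA6B, which fell from 845 ± 70.7 to 607 ± 21.6 (SD, n = 3), a log2FC of -0.48 (adjusted p = 5.2e-05). SEMA4D, the ligand of PLXNB1, fell from 1001 ± 64.5 to 747 ± 29.1 with -0.42 (adjusted p = 5.4e-05), and SEMA4B from 1547 ± 122 to 1181 ± 19.2 with -0.39 (adjusted p = 6.8e-05). The opposite-strand share of the SEMA4D counts was 8.52% in control and 13.8% in knockdown libraries. SEMA6D fell from 447 ± 34.3 to 353 ± 67.1 with -0.35 (adjusted p = 0.0195), but its groups overlapped and the call was lost without control library 3 (adjusted p = 0.0532) and without knockdown library 1 (0.101) or 2 (0.102). SEMA4C, a ligand of PLXNB2, rose from 1226 ± 78.1 to 1668 ± 50.3 with 0.44 (adjusted p = 1.1e-05), and SEMA4F from 697 ± 17.8 to 875 ± 44.6 with 0.33 (adjusted p = 0.00029). For SEMA4C and SEMA4F every knockdown library was above every control. SEMA5A, with the highest level of the class, had 7746, 10044 and 7746 in control cells and 7352, 6962 and 7800.5 in knockdown cells, and its -0.21 (adjusted p = 0.0524) became -0.27 (adjusted p = 0.027) without control library 1 and -0.27 (adjusted p = 0.0233) without control library 3. Without control library 2, the highest of the 6, it was -0.07 (adjusted p = 0.15). SEMA7A, the lipid-anchored ligand of PLXNC1, had -0.14 (adjusted p = 0.549).

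Of the 7 plexins, 3 were higher and 2 lower (71.4%, against 48.3% of all genes tested). PLXNC1, the receptor of SEMA7A (ENSG00000136040.9, chr12:94148577-94307675 on the plus strand), had 52.0, 64.2 and 60.1 in control cells and 147, 114 and 108 in knockdown cells. Each knockdown library was well above the highest control, and the log2FC of 1.08 (SE 0.159, adjusted p = 9.7e-05) was the highest of all members, from a low starting level. The strand opposite to the gene held 33.3% of its stranded counts in control and 16.8% in knockdown libraries, and without regard to strand the log2FC was 0.84. PLXNA3, a receptor of class 3 semaphorins, rose from 898 ± 54.2 to 1220.2 ± 50.2 (SD, n = 3) with 0.44 (adjusted p = 2.2e-05). PLXNB1, the receptor of SEMA4D, rose from 749 ± 105 to 918 ± 122 with 0.28 (adjusted p = 0.033), a call that was lost without control library 2 (adjusted p = 0.0781) and without knockdown library 3 (adjusted p = 0.157). PLXNA2 fell from 778 ± 64.7 to 639 ± 31.6 with -0.28 (adjusted p = 0.0037) and PLXNB2 from 12605 ± 475 to 11239.6 ± 251 with -0.17 (adjusted p = 0.0029). PLXNA1 and PLXND1, at 0.05 and 0.11, did not pass the test. The summed plexin level, of which PLXNB2 made up most, was 93.8% of control.

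In the SLIT and ROBO family, SLIT3 fell and ROBO3 rose, both short of the fold change cutoff. SLIT3, a repellent ligand, had 8347, 9689.7 and 7977 in control cells and 5966, 5773 and 6348 in knockdown cells, with all knockdown libraries under all controls and a log2FC of -0.52 (SE 0.0623, adjusted p = 1.5e-05). SLIT2 had 4606, 5786 and 4220.4 in control cells and 4606, 4422 and 4319.9 in knockdown cells, and control library 2 stood above the other 5. Its log2FC of -0.13 (adjusted p = 0.229) was 0.01 without that library (adjusted p = 0.875) and -0.22 without control library 3 (adjusted p = 0.0313), so its direction and its call changed with single controls. ROBO1, a SLIT receptor, went from 516 ± 36.2 to 451 ± 23.0 (SD, n = 3) with -0.19 (adjusted p = 0.0411). The call for ROBO1 was lost without control library 1 (adjusted p = 0.0625), control library 2 (0.131), or knockdown libraries 1 (0.0573), 2 (0.17) or 3 (0.0739), and DESeq2 gave 0.0891. ROBO3, a divergent ROBO known from axons that cross the midline, had 443, 309.7 and 351 in control cells and 554, 563 and 528 in knockdown cells. Its knockdown libraries lay above all controls with 0.57 (SE 0.102, adjusted p = 0.00047), and it passed the fold change cutoff without control library 1 (0.73) and without knockdown library 3 (0.60). ROBO2 was not tested.

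Among the netrin receptors, NEO1 was DE lower. NEO1 encodes neogenin, a receptor of netrins and of the repulsive guidance molecules (ENSG00000067141.17, chr15:73051710-73305205 on the plus strand), and had 2655, 2807 and 2762 in control cells and 1596, 1583 and 1637 in knockdown cells. The spread within either group was small against the gap, and the log2FC was -0.77 (SE 0.0399, adjusted p = 9.4e-09). UNC5B, a receptor for repulsion by netrin, fell from 1079 ± 126 to 809 ± 64.6 (SD, n = 3) with -0.42 (adjusted p = 0.00071). UNC5C, of the same kind and with a higher level per kb of exon than UNC5B (8.12 and 4.88 CPM per kb in control cells), had 2576, 3442 and 2405 in control cells and 3186, 3011 and 3107 in knockdown cells. Control library 2 was again the highest of all 6, and the log2FC of 0.15 (adjusted p = 0.23) was 0.31 without it (adjusted p = 3.7e-06) and 0.05 without control library 3 (adjusted p = 0.686). NTN4, a netrin of basement membranes and the only netrin of the list that was tested, went from 323 ± 14.6 to 279.8 ± 16.5 with -0.20 (adjusted p = 0.0541), and had -0.24 (adjusted p = 0.0459) without control library 1 and -0.15 (adjusted p = 0.173) without knockdown library 3. NTN1, the classical netrin, had 1 to 9 raw counts per library, and DCC, its attractive receptor, had none.

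Ratios taken within a library show the balance between related genes without regard to scaling, and are given as a description of levels per kb of exon. The size of a ratio depends on the annotated exon lengths, which were the same for both groups. The ratio of EPHB2 to EPHB4 was 0.711, 0.742 and 0.774 in control and 0.414, 0.433 and 0.388 in knockdown libraries. That of EFNB1 to EFNB2 was 2.73, 2.48 and 2.61 in control and 1.73, 1.52 and 1.83 in knockdown libraries. NRP1 to NRP2 went from 4.40 ± 0.129 to 3.63 ± 0.164 (SD, n = 3). SEMA3F to SEMA3E went from 8.68 ± 1.22 to 3.47 ± 0.186, and EPHA4 to EPHA2 from 0.360 ± 0.0337 to 0.502 ± 0.0232. For none of these ratios did a control library overlap a knockdown library. Every pair holds a gene that passed the test by itself, so this separation is no further evidence. No share over other pairs of genes was taken. As sums per kb of exon, the ephrin-B family was at 68.3% of control, the EphB receptors at 74.3%, netrin and its receptors at 80.6%, SLIT and ROBO at 82.3%, secreted semaphorins at 90.7%, ephrin-A at 91.6% and membrane semaphorins at 91.7%. The groups overlapped for ephrin-A, at 12.6 to 13.8 in control and 11.6 to 12.7 in knockdown libraries. They also overlapped for membrane semaphorins, at 44.8 to 51.4 in control and 42.9 to 45.1 in knockdown libraries. The control sum of SLIT and ROBO was highest in control library 2, at 40.1 against 34.3 and 32.0.

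**Figure D4:**
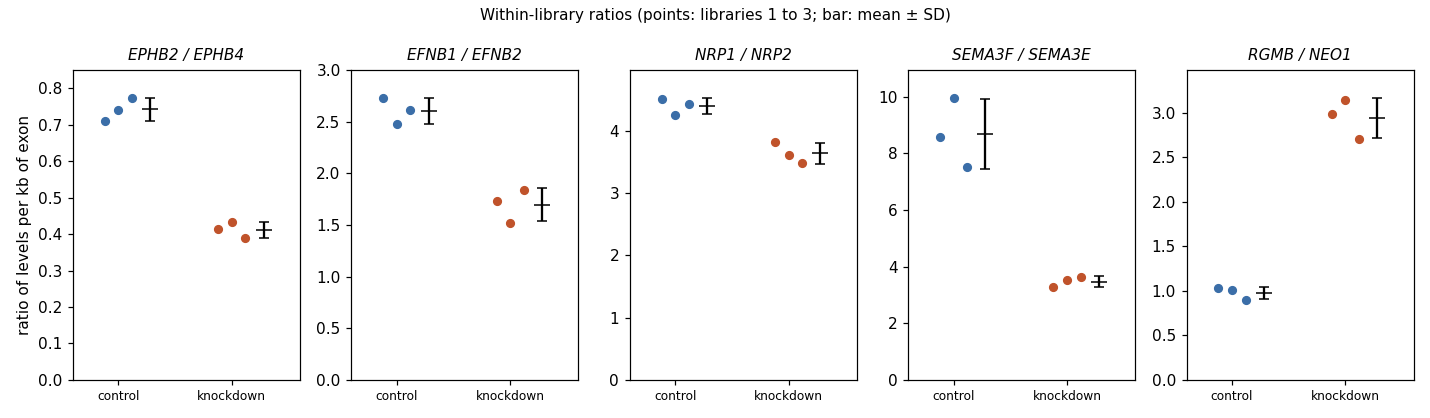
Ratio of 2 genes' levels per kb of exon in each library (points, libraries 1 to 3 from left to right) with mean ± SD (bars), on axes that start at 0. EPHB2/EPHB4, EFNB1/EFNB2, NRP1/NRP2 and SEMA3F/SEMA3E are lower in all knockdown libraries, and RGMB/NEO1 is higher, at 2.704 to 3.146 against 0.901 to 1.026.

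Other genes of the same pathways were taken from lists chosen with earlier results of these data known. The lists hold further family members, intracellular effectors, proteases and proteoglycans, and antisense transcripts. Of these 102 genes 98 were matched in the files and 71 tested, and 23 were higher and 28 lower (71.8% at an adjusted p under 0.05, against 48.3% of all genes tested), with 3 DE higher and 6 DE lower (12.7% DE, against 11.7% of all genes tested). RGMB, a membrane-anchored ligand of neogenin and co-receptor of BMPs, had 2225, 2305 and 2032 in control cells and 3891, 4066 and 3612 in knockdown cells, a log2FC of 0.82 (SE 0.0538, adjusted p = 6.9e-08). It rose while NEO1 fell, and the ratio of RGMB to NEO1 went from 0.978 ± 0.0669 to 2.95 ± 0.224 (SD, n = 3). RGMB was the only DE gene among the 12 further family members tested (8.33%, against 11.7% of all genes tested). Of these 12, 2 were higher and 2 lower (33.3%, against 48.3% of all genes tested).

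Of 15 Eph effectors tested, 5 were higher and 9 lower (93.3%, against 48.3% of all genes tested). The share that was DE was 6.67%, against 11.7% of all genes tested. NGEF, the exchange factor ephexin that links Eph receptors to small GTPases, had 263, 289 and 269 in control cells and 96.6, 107 and 115 in knockdown cells, 38.5% of control, with -1.38 (SE 0.103, adjusted p = 2.2e-07). Of 19 plexin and neuropilin partners, 8 were higher and 6 lower (73.7%), and 26.3% were DE. MET, the HGF receptor that associates with B-type plexins, fell from 2247 ± 164 to 1245 ± 58.1 (SD, n = 3) with -0.85 (adjusted p = 6.6e-08). KDR, the VEGF receptor that NRP1 assists, fell from 1519 ± 13.7 to 949.9 ± 27.9 with -0.68 (adjusted p = 5.6e-08), and RND1, a GTPase that binds plexins, from 91.5 ± 11.1 to 56.7 ± 11.5 with -0.71 (adjusted p = 0.0035). GIPC1, an adaptor that binds the tail of NRP1, rose from 2185 ± 96.4 to 3376 ± 83.8 with 0.63 (adjusted p = 8.6e-08), and DPYSL4, of the collapsin response mediator family, from 47.7 ± 13.3 to 74.3 ± 5.96 with 0.61 (adjusted p = 0.0177). The DPYSL4 call was lost without control library 2 (0.41, adjusted p = 0.0615) and without knockdown library 3 (0.56, adjusted p = 0.0565). Of 15 effectors of ROBO and netrin receptors, 3 were higher and 8 lower (73.3%), and 6.67% were DE. Among them DAPK1, a death-associated kinase that UNC5 receptors engage, fell from 10242 ± 208 to 6533 ± 217 with -0.65 (adjusted p = 2.4e-08). Of 9 proteases and proteoglycans tested, 5 were higher and 2 lower (77.8%), none DE. Of the antisense transcripts only SEMA6A-AS1 was tested, at 4 to 15 raw counts per library, with -1.01 (adjusted p = 0.0422). Its call was lost in 4 of 6 fits with a library left out, up to an adjusted p of 0.17 without knockdown library 2, with 0.107, 0.12 and 0.0872 without control libraries 2 and 3 and knockdown library 3, and with DESeq2 (0.17).

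Over 14 other settings the directions of the 10 DE genes held in each, and EPHB2, NRP1, EFNB1, NEO1 and PLXNC1 stayed DE in all of them. Their log2FC values ranged from -1.02 to -0.92 for EPHB2, -0.99 to -0.87 for NRP1, -0.83 to -0.73 for EFNB1, -0.79 to -0.71 for NEO1 and 0.84 to 1.16 for PLXNC1. SEMA3F, SEMA3E, NRP2, EPHA5 and EFNA3 were the members that fell short of a cutoff in at least 1 setting, and ROBO3 passed both in 3.

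**Figure D5:**
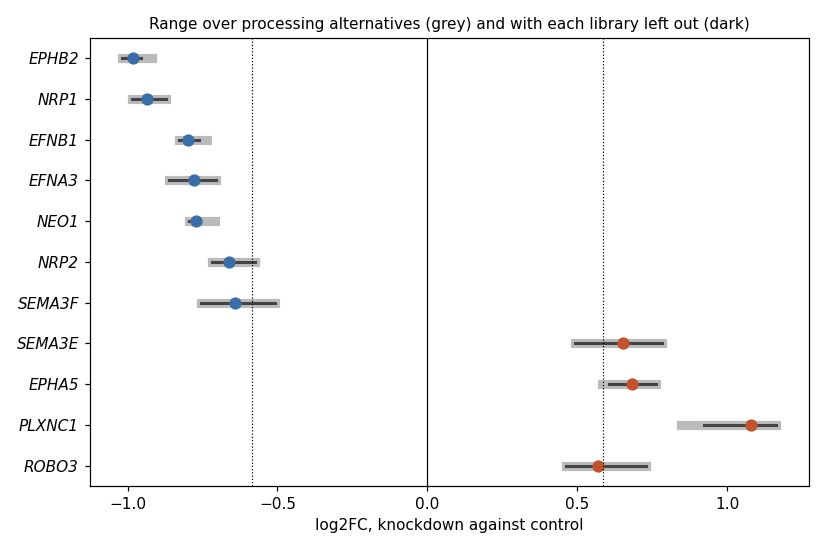
Log2FC as reported (points), its range over the 14 other settings (grey) and on leaving out single libraries (dark), with dotted lines at a fold change of 1.5. The ranges of EPHB2, NRP1, EFNB1, EFNA3, NEO1 and PLXNC1 stay beyond the lines, and those of NRP2, SEMA3F, SEMA3E, EPHA5 and ROBO3 cross them.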

How the data were processed

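Total RNA of 12Z cells was sequenced as poly-A libraries. The authors aligned the reads with STAR 2.7.6a to GRCh38.p13 with GENCODE v36 and deposited raw counts of read pairs per gene, uniquely mapped and not normalized, for either strand and without regard to strand. Counts on the strand opposite to read 1 were used here, since they held 93.9% to 94.1% of the stranded counts. Depth was 27742562 to 37551194 counts on genes per library. Read pairs without a feature on this strand were 4.38% to 5.22% of the uniquely mapped pairs of a library and stayed out of all sums.

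Genes were filtered with filterByExpr (minimum count 10), normalized with TMM and compared with edgeR 4.0.16 in R 4.3.3 by its quasi-likelihood test, with group as the only term, 3 libraries per group. Benjamini-Hochberg adjustment was over 15155 genes. Exon lengths and 3′ UTRs came from GENCODE v44, since v36 was not at hand, and 60419 of 60660 identifiers were matched to a symbol. Members and gene lists were chosen with earlier results of these data known. LINC01133 and all 53 members could be named, together with the DE genes of each pathway list and at most 3 genes of a marker list. Alternatives were DESeq2 1.42.0, median-of-ratios factors, library size alone, no filter on low counts, a minimum of 10 in each library, unstranded counts, a replicate block, a test against a fold change of 1.5 (glmTreat), and leaving out single libraries.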

Additional observations from a re-analysis of the deposited data

How the results depend on the processing

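The counts of guidance genes past a threshold stayed within 1.5 times those reported under every alternative but glmTreat, which tests against a 1.5-fold change. That test called 1 member higher and 4 lower, for the adjusted p alone as for DE, in place of 9 and 21 or 3 and 7, because it asks for a fold change beyond the cutoff. With a library left out, 8 to 10 members were higher and 17 to 22 lower at an adjusted p under 0.05, and 2 to 4 were DE higher and 6 or 7 DE lower. Scaling by library size alone moved the median log2FC of all genes tested to 0.07 and the share of DE genes that were higher from 45.2% to 55.9%, and gave 11 members higher and 16 lower. Directions reversed for values near 0 only, none of which passed the test. EFNA4 had 0.0398 with library size alone and -0.0860 to 0.0379 with a library left out (0.0253 without knockdown library 1). SEMA3D had -0.0151 to 0.0724 (-0.0015 without knockdown library 2) and SLIT2 -0.220 to 0.0096. The cause was not tested. Of the other values for single genes, 731 kept their side of the threshold, 65 lost it and 20 gained it. The losses include the members that passed the main test but not glmTreat, which asks for a fold change beyond 1.5. Same-numbered libraries did not deviate together (r = -0.015, 0.0049 and 0.057 across genes). Deviations of 3 libraries from their own group mean cannot show whether libraries of the same number were prepared together. With the replicate block 10 members were higher and 21 lower, 3 were DE higher and 7 DE lower, the same 10 genes, and 1747 genes in all were DE. EPHB6 (adjusted p = 0.0283) and SEMA3B (0.0307) passed the test with it and ROBO1 (0.0571) did not. Members with few counts, such as EPHB3 and EFNA3, have standard errors of 0.43 and 0.21, against a median of 0.07 over the members, so small shifts in them could not be detected. The standard errors cover 3 libraries per group, and with a library left out a group has 2.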
